A study of Homo sapiens with 6 samples.

Results

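Synaptic vesicle and presynaptic genes were examined in H660 (NCI-H660), an established line of neuroendocrine prostate cancer (NEPC), with and without induction of a MUC1 shRNA. The set comprised 43 genes that were picked by symbol for their place in the presynaptic terminal, out of 28008 gene symbols in the count table. They were chosen with earlier results of these data known. Of the 43, 39 had enough counts to be tested among 17026 genes. All cells carried a doxycycline (DOX)-inducible MUC1 shRNA in a pLKO-tet-puro vector under puromycin selection. DOX-negative cells received 0.1% DMSO as the vehicle (n = 3 libraries) and DOX-positive cells received 500 ng/ml DOX (n = 3 libraries), for 7 days by the study's methods. The libraries came from triplicate cultures per the labels and are compared here as replicates. No library of DOX-treated cells without the MUC1 shRNA was compared, so that DOX itself and the shRNA cannot be told apart.

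Neurotransmitter and hormone release rest on a shared machinery. Vesicles are loaded and marked by membrane proteins such as synaptophysin and SV2, are docked and primed at the active zone by RAB3, RIM, UNC13 and CADPS proteins, and fuse through the SNARE proteins when synaptotagmins sense calcium. The membrane is then retrieved by dynamins, amphiphysin and their partners. Neuroendocrine cells use much of the same machinery for dense core granules, and synaptophysin is a standard pathology marker of neuroendocrine tumors.

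The libraries held between 47620696 and 74061121 counts. MUC1, the gene targeted by the shRNA, was at 88.2, 90.2 and 79.6 normalized CPM (CPM, read counts scaled to the same library size) without DOX and at 36.7, 37.2 and 29.9 with DOX, a log2 fold change of -1.32 ± 0.096 (SE; edgeR adjusted p = 0.000173). The neuroendocrine identity of the line was checked on 5 markers (CHGA, CHGB, INSM1, NCAM1 and ENO2), all of which were tested and together reached 666.5 to 750.9 normalized CPM in DOX-negative and 547.5 to 642.5 in DOX-positive libraries. NCAM1, a neural adhesion molecule, and INSM1, a neuroendocrine transcription factor, fell by 0.50 and 0.45 on the log2 scale (edgeR adjusted p = 0.0142 and 0.0389). None of the 5 was called higher, and CHGA, CHGB and ENO2 were not called in either direction. CHGB, a granin, was at 67.1, 63.9 and 49.2 normalized CPM without DOX and at 67.3, 70.7 and 81.9 with DOX, with no overlap (log2 fold change 0.29; edgeR adjusted p = 0.175), and ENO2 was at 0.13. Of 5 androgen receptor axis markers, 3 were at or under 0.15 CPM in every library, KLK3 (which encodes PSA) had no counts, and the sums were 1.91 to 2.38 CPM without DOX and 2.13 to 2.41 with DOX. Of 7 fibroblast markers, COL3A1 and THY1 had no counts, 2 more were at or under 0.15 CPM, and the list summed to 25.1 to 30.6 CPM without DOX and 23.4 to 27.9 with DOX. The fibroblast markers COL1A1 and LUM rose by 0.60 and 1.06 on the log2 scale (edgeR adjusted p = 0.0187 and 0.0297), whereas COL1A2, the third that could be tested, was at -0.71 without overlap of the groups (edgeR adjusted p = 0.204). Of 5 glial markers, 4 were at or under 0.15 CPM, and the 1 that could be tested was not called. The sums, which rest almost wholly on that gene, were 13.9 to 14.7 CPM without DOX and 14.9 to 18.5 with DOX, without overlap. The part of these other markers in the results below was not tested.

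Transcription of many synaptic genes is restrained outside neurons by the repressor REST, which binds the RE1 element, and the promoters of the genes that changed are shown for that reason. RefSeq promoters (build GRCh38.p14) were matched to 37 of the 43 genes, which gave 57 promoter windows of 300 bases. SYNGR3, SYT7, SNAP25, CPLX1, RIMS2 and NRXN2 had no entry. Both half-sites of RE1, AGCACC and GGACAG, were searched on both strands. The lines below give the 250 bases before the transcript start, 5′ to 3′ on the gene's strand, of the 3 genes that passed the test with DOX, and a stretch of 57 bases from SYN1, with half-sites in capitals. The ERC2 window is chr3:56468468-56468717 (minus strand) and the AMPH window chr7:38631374-38631623 (minus strand), both directly ahead of the annotated gene. The RAB3C window is chr5:58582825-58583074 (plus strand), which lies inside the gene's annotated span, ahead of the start that the promoter table uses. The SYN1 stretch is chrX:47620051-47620107 (minus strand).
ERC2: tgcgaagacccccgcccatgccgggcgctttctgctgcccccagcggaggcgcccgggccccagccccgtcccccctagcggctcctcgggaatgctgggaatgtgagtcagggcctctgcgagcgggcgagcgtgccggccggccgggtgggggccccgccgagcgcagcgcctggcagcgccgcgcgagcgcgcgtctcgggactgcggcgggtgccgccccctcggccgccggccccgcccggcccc
AMPH: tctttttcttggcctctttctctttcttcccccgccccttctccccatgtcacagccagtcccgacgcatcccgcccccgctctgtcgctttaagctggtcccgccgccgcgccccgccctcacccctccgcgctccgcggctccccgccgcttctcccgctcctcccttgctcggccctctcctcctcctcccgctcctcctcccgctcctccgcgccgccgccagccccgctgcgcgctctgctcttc
RAB3C: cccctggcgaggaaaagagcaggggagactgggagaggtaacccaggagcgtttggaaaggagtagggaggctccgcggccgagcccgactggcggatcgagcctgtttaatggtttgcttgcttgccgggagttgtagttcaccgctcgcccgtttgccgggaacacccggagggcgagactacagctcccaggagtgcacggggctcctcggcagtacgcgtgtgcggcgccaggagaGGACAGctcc
SYN1: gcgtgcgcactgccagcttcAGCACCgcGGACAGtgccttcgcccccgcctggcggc

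Neither half-site was present in the ERC2 and AMPH windows, and that of RAB3C held GGACAG at position -10 relative to the start. AGCACC was found in 12 of the 57 windows (21.1%, against 15.9% of all 35116 promoters) and GGACAG in 13 (22.8%, against 20.5%). Windows of GAP43, NRXN3, UNC13A and SYN1 held both strings (7.02%, against 3.78%). In the SYN1 window AGCACC was followed after 2 bases by GGACAG, the spacing of the full element, at position -230 relative to the start, and 20 of the 35116 promoters (0.0570%) shared that arrangement. The 57 windows had a median GC content of 67.0%, against 58.7% for all promoters, and a median observed over expected CpG ratio of 0.739, against 0.579. These matches describe letters in the reference sequence and no binding was measured.

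Levels between genes were compared in TPM, which divides counts by gene length. At least 1 TPM on average was found for 29 of the 43 genes. The most abundant was CPLX2, a complexin that clamps the SNARE complex before fusion, at 36.9, 41.9 and 29.7 TPM in the DOX-negative and 43.7, 28.3 and 32.0 TPM in the DOX-positive libraries. It was followed by KIF1A, the kinesin motor that carries vesicle precursors along axons, with a mean of 22.5 TPM over the 6 libraries. RAB3B, a vesicle-bound GTPase, was at 22.4 TPM, and RIMS2, a RIM scaffold of the active zone, was at 22.2 TPM. SYP, which encodes synaptophysin, was at 19.5 TPM, and DNM1, the dynamin that severs endocytic vesicles, was at 17.0 TPM. The order of these genes below CPLX2 was not resolved by the spread between libraries, which ran from 16.4 to 27.4 TPM for KIF1A, from 16.5 to 29.3 TPM for RAB3B, from 16.0 to 27.5 TPM for RIMS2, from 16.8 to 23.8 TPM for SYP and from 13.3 to 20.9 TPM for DNM1. DNM1 has 31 annotated pseudogenes with which it could share reads. These 6 genes held between 49.3% and 50.8% of the TPM of all 43 in every library. At the other end, the vesicular glutamate transporters SLC17A6 and SLC17A7, the synapsin SYN2 and the vesicle protein SV2C had no more than 13 counts in any library and were not tested.

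**Figure D1:**
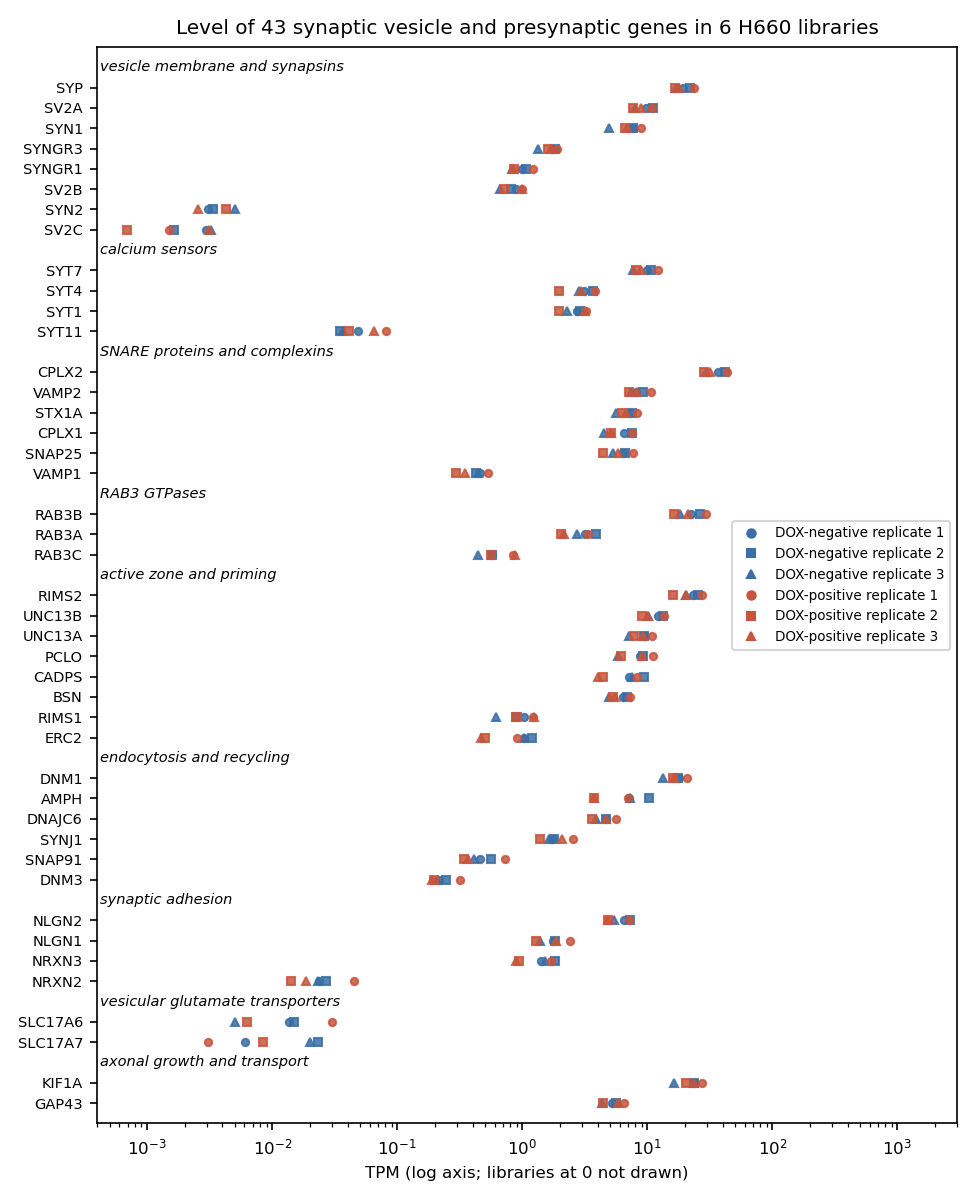
TPM (log axis) of each of the 43 genes in the 3 DOX-negative (blue) and 3 DOX-positive (red) libraries, with 1 symbol per replicate number and genes grouped by role. Levels ran from 35.4 TPM on average for CPLX2 to 0.0022 TPM for SV2C, and for most genes the blue and red symbols intermix.

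Shares of TPM were taken among paralogs within the set, so that related genes outside the 43 do not enter them. In most of these groups a single gene held most of the transcripts. CPLX2 made up 85.5% ± 1.15 (SD, n = 3) of CPLX1 and CPLX2 TPM in DOX-negative cells, VAMP2 94.9% ± 0.624 of the VAMP1 and VAMP2 total, SV2A 92.3% ± 0.809 of the SV2 genes, and RIMS2 96.5% ± 0.660 of RIMS1 and RIMS2. SYN2 accounted for no more than 0.103% of the SYN1 and SYN2 total in any library. Among the 4 synaptotagmins of the set, SYT7, a slow, high-affinity calcium sensor, led with 61.5% ± 1.54, ahead of SYT4 and of SYT1, the fast sensor of synaptic release. SYT13, outside the set, had a mean of 12.2 TPM against 9.61 TPM for SYT7. VAMP8 and VAMP3, also outside it, were at 80.5 and 22.8 TPM against 8.49 TPM for VAMP2. RIMS4 and RAB3D, at 5.14 and 8.31 TPM, were below RIMS2 and RAB3B. UNC13A and UNC13B, the priming factors, were closer to parity, as were BSN and PCLO, the giant scaffolds of the active zone.

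TPM moved between libraries in a way that normalized CPM did not. The 43 genes summed to 288, 317 and 233 TPM in the DOX-negative and 342, 224 and 260 TPM in the DOX-positive libraries, and 29 of the 43 had their highest TPM in DOX-positive replicate 1. The 10 genes with the highest TPM of the whole table, led by the small nuclear RNA RN7SK, took 78.5%, 77.0% and 82.8% of all TPM in DOX-negative and 74.9%, 82.6% and 80.2% in DOX-positive libraries. The 3 libraries in which these 10 genes took the most were the 3 in which the 43 genes summed to the least. In normalized CPM the sums lay between 3358 and 3610 in all 6 libraries. Changes with DOX are therefore given in normalized CPM.

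With DOX, 3 of the 39 tested genes passed the test (7.69%), against 4.87% of all tested genes, and 36 did not. RAB3C rose, and ERC2 and AMPH fell. DESeq2, run without the count filter, called 7 of the 43 genes of the set, against 6.00% of 22564 genes with any count. The filter of the main test kept 39 of the 43 and 17026 of the 22564. The DESeq2 share over all genes therefore holds more genes with few counts than the set does. On TPM limma called 0, where its 3 settings called 0.256%, 0.299% and 0% of all genes. The edgeR count was 0 of 39 without DOX-negative replicate 3 (0.337% of all genes) and 1 of 39 without its replicate 2 (0.737%). It was 6 of 39 when DOX-positive replicate 1 was left out (6.02%). Calls over the whole table, 4.87% with all libraries, moved in the same directions. The rise from 3 to 6 was larger in proportion than that from 4.87% to 6.02%. Genes called higher were 2.91% and genes called lower 1.96% of all tested genes. The groups did not overlap for 11 of the 39 (28.2%), against 28.1% of all tested genes, and 11 of the 39 had an unadjusted edgeR p under 0.05, against 21.1% of all tested genes. The point estimates were above 0 for 19 genes and below 0 for 20, with a median log2 fold change of -0.01 against 0.00034 for all tested genes. The median absolute value was 0.111, against 0.130. In bulk RNA, fewer cells that express a gene and less of its RNA per cell cannot be told apart.

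**Figure D2:**
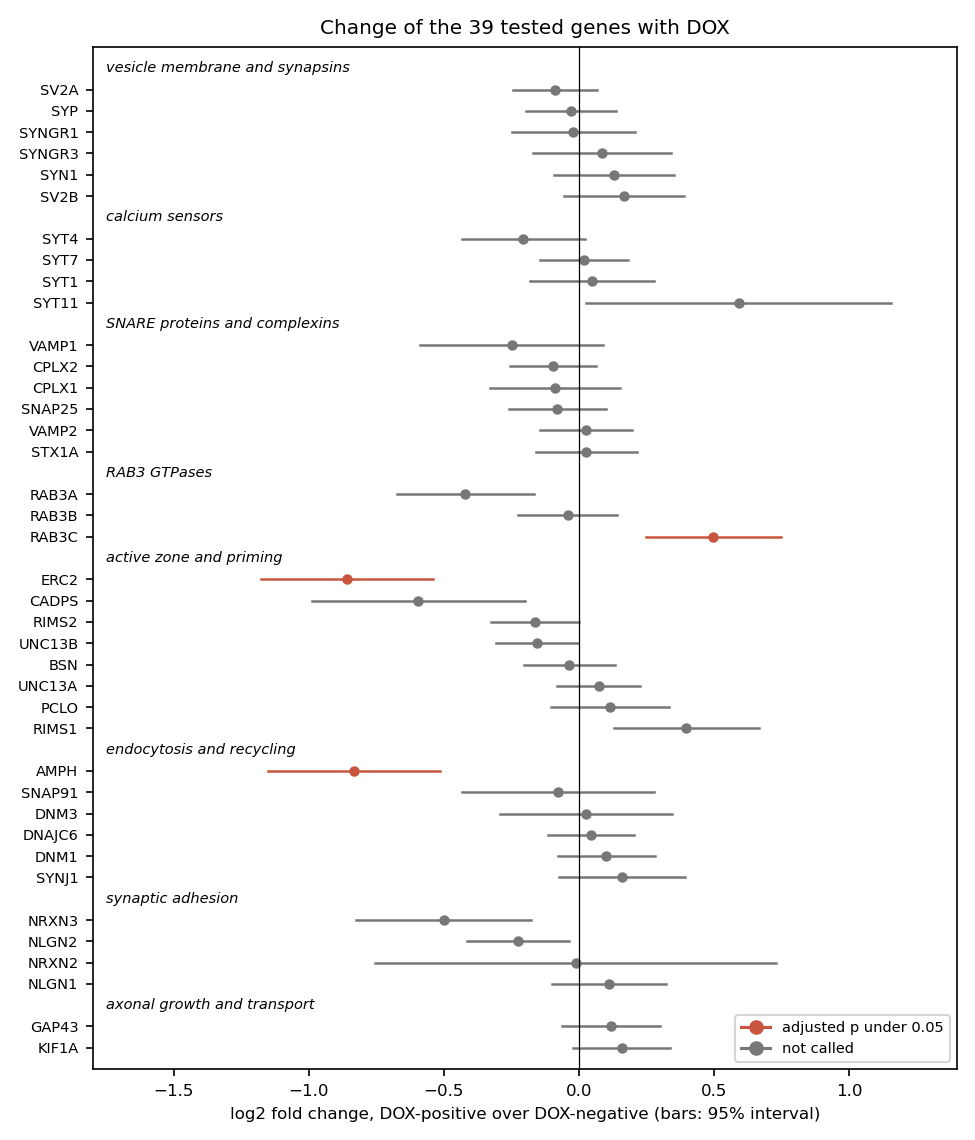
Log2 fold change of DOX-positive over DOX-negative libraries for the 39 tested genes, grouped by role, with 95% intervals from the edgeR model as bars. RAB3C, ERC2 and AMPH (red) passed the test, and 28 of the 39 points lie within 0.2 of 0.

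ERC2 encodes an active zone scaffold of the ELKS family that binds RIM, and spans chr3:55508311-56468467 (GRCh38.p14). Its level was 11.7, 12.8 and 14.3 normalized CPM without DOX and 8.61, 7.18 and 5.53 with DOX. Every DOX-positive library lay below every DOX-negative one. The log2 fold change was -0.86 ± 0.15 (SE; 95% interval -1.18 to -0.54; edgeR adjusted p = 0.0103). The call was lost without DOX-negative replicate 3 (edgeR adjusted p = 0.0810). The gene overlaps its antisense transcript ERC2-AS1, and the strand setting of the counting was not given in the sources used here.

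AMPH encodes amphiphysin, which senses membrane curvature and recruits dynamin to endocytic pits, and lies at chr7:38383704-38631373. It was at 42.8, 57.7 and 53.3 normalized CPM without DOX and at 34.7, 28.4 and 23.1 with DOX. The groups did not overlap, although DOX-negative replicate 1 and DOX-positive replicate 1 were the closest pair. The log2 fold change was -0.83 ± 0.15 (SE; 95% interval -1.15 to -0.51; edgeR adjusted p = 0.0123). The edgeR adjusted p was 0.0527 or 0.0810 when replicate 2 or 3 of the DOX-negative group was left out, and 0.118 when replicate 2 of the DOX-positive group was.

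RAB3C, a RAB3 GTPase at chr5:58582152-58859394, was the 1 gene of the 39 tested that passed the test upward. Its level was 9.36, 8.87 and 8.86 normalized CPM without DOX and 11.6, 11.6 and 15.0 with DOX. DOX-positive replicate 3 stood above the other two, and no DOX-positive library reached down to the DOX-negative range. The log2 fold change was 0.50 ± 0.11 (SE; 95% interval 0.25 to 0.75; edgeR adjusted p = 0.0304). It no longer passed the test without DOX-negative replicate 1, 2 or 3 (edgeR adjusted p = 0.0546, 0.130 and 0.151) or without DOX-positive replicate 3 (edgeR adjusted p = 0.0873). At a mean of 0.643 TPM, RAB3C was the least abundant of the 3 RAB3 genes of the set. On unfiltered log2(TPM + 1) all 3 calls were lost, with limma adjusted p values of 0.574 for ERC2, 0.714 for AMPH and 0.854 for RAB3C. That setting called 0 of 21241 genes, so that the loss was not particular to these 3.

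The 5 largest differences among the genes that did not pass the test are given next. CADPS, the priming factor of dense core granules, was at 70.0, 88.0 and 91.2 normalized CPM in DOX-negative and 68.1, 55.6 and 41.1 in DOX-positive libraries. The groups were adjacent without overlap, and the log2 fold change was -0.60 ± 0.17 (edgeR adjusted p = 0.0892). SYT11, a synaptotagmin that does not bind calcium, was at 0.454, 0.307 and 0.420 normalized CPM in DOX-negative and 0.635, 0.491 and 0.638 in DOX-positive libraries. These values rest on a mean of 32 counts per library, and the log2 fold change of 0.59 had a 95% interval of 0.03 to 1.16 (edgeR adjusted p = 0.216).

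NRXN3, a presynaptic neurexin that binds neuroligins across the synapse, was at 37.0, 45.5 and 48.5 normalized CPM without DOX and at 37.4, 30.9 and 24.2 with DOX. DOX-positive replicate 1 lay within the DOX-negative range (log2 fold change -0.50 ± 0.15; edgeR adjusted p = 0.0760). RAB3A, the main RAB3 of brain synapses, which overlaps MPV17L2 in the annotation, was at 7.62, 8.89 and 8.07 normalized CPM without DOX and at 6.75, 6.18 and 5.43 with DOX, with no overlap (log2 fold change -0.42 ± 0.12; edgeR adjusted p = 0.0591). RIMS1, the other RIM scaffold, was at 21.0, 17.1 and 15.4 normalized CPM without DOX and at 21.0, 23.1 and 26.5 with DOX. Replicate 1 of both groups was at nearly the same level (log2 fold change 0.40 ± 0.12; edgeR adjusted p = 0.0840). DESeq2 called CADPS, NRXN3, RAB3A and RIMS1 (adjusted p = 0.0022, 0.0096, 0.0227 and 0.0374) and did not call SYT11.

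**Figure D3:**
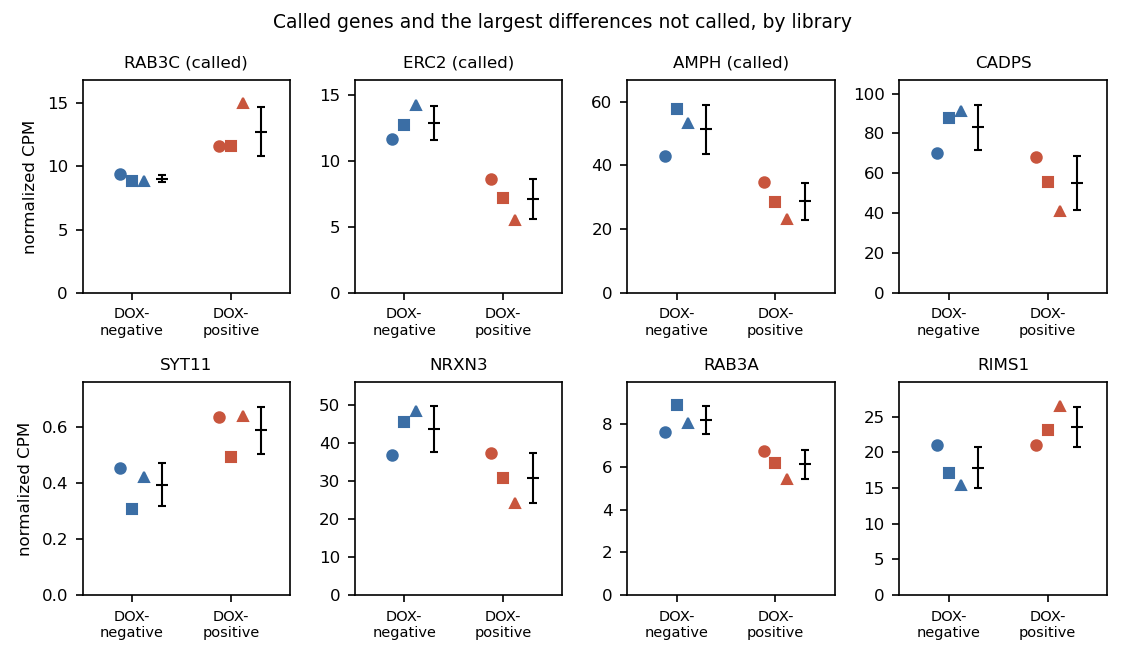
Normalized CPM per library of the 3 called genes and of the 5 largest differences that were not called, with replicates 1, 2 and 3 as circles, squares and triangles and the mean ± SD beside each group. ERC2 and AMPH are lower and RAB3C higher in all 3 DOX-positive libraries, whereas the groups of NRXN3 and RIMS1 meet in replicate 1.

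None of the 6 most abundant genes passed the test. CPLX2 was at 323, 346 and 317 normalized CPM without DOX and 320, 312 and 291 with DOX, a log2 fold change of -0.10 with a 95% interval of -0.25 to 0.06. KIF1A was at 397, 374 and 336 normalized CPM without DOX and 386, 436 and 415 with DOX (0.16; 95% interval -0.02 to 0.34). For both of these genes the groups overlapped. RAB3B was at 521, 583 and 519 normalized CPM without DOX and 572, 486 and 518 with DOX (-0.04; 95% interval -0.22 to 0.14). SYP, the pathology marker, was at 79.7, 85.5 and 85.8 normalized CPM without DOX and 82.1, 87.4 and 76.5 with DOX (-0.03; 95% interval -0.20 to 0.14). DNM1 was at 128, 120 and 116 normalized CPM without DOX and 125, 143 and 122 with DOX (0.10; 95% interval -0.08 to 0.28), and, like RAB3B and SYP, its groups overlapped. RIMS2 was the exception, at 381, 392 and 408 normalized CPM without DOX and 376, 330 and 347 with DOX. Its groups lay next to each other without overlap, and the log2 fold change of -0.16 ± 0.075 did not pass the test (edgeR adjusted p = 0.236). In none of the 18 alternative analyses did any of the 6 genes pass the test.

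By role, none of the 6 tested vesicle membrane and synapsin genes passed the test, with log2 fold changes between -0.09 (SV2A, the widely expressed SV2 glycoprotein) and 0.17 (SV2B). The same held for the 6 SNARE and complexin genes, which lay between -0.25 (VAMP1) and 0.03 (VAMP2 and STX1A, the vesicle and plasma membrane SNAREs of synaptic fusion), with SNAP25 at -0.08. Of the 4 synaptotagmins, SYT1, SYT4 and SYT7 lay between -0.21 and 0.05. Among 8 active zone and priming genes 1 fell (ERC2), and UNC13A, UNC13B, BSN and PCLO were at 0.07, -0.15, -0.04 and 0.11. Of 6 endocytosis and recycling genes 1 fell (AMPH), while SYNJ1, a lipid phosphatase that helps to uncoat vesicles, and DNAJC6, which encodes the uncoating factor auxilin, were at 0.16 and 0.04. The neuroligins NLGN1 and NLGN2, the partners of neurexins on the postsynaptic side, were at 0.11 and -0.22, and the growth cone protein GAP43 was at 0.12. The 95% interval lay within 0.5 of 0 on the log2 scale for 29 of the 36 genes that did not pass the test. The exceptions were SYT11, VAMP1, RAB3A, RIMS1, CADPS, NRXN2 and NRXN3, of which NRXN2 had the widest interval, from -0.76 to 0.73.

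The balance between paralogs was also compared, as a description with no test. Shares did not overlap between DOX-negative and DOX-positive libraries in 4 of the 14 groups of paralogs within the set. A group counted when the share of any of its genes separated. No such count was made for paralogs outside the set. In normalized CPM 28.1% of all tested genes did not overlap, which is a share of single genes and not of groups of paralogs. The shares of SLC17A6 and SLC17A7 could not be formed in DOX-positive replicate 3, where both had 0 counts. This pair is among the 14 groups but could not be judged. RAB3A made up 12.2%, 12.6% and 12.8% of RAB3A, RAB3B and RAB3C TPM in the DOX-negative libraries and 10.0%, 10.7% and 8.89% in the DOX-positive libraries, while RAB3C made up 2.18%, 1.84% and 2.06% and then 2.52%, 2.93% and 3.59%. RAB3B held 85.4% ± 0.279 (SD, n = 3) without and 87.1% ± 0.638 with DOX, and was the most abundant of the 3 in every library. RIMS1 took 3.52% ± 0.660 of RIMS1 and RIMS2 TPM without DOX and 5.12% ± 0.769 with DOX. UNC13A took 42.3% ± 1.49 of UNC13A and UNC13B TPM without DOX and 46.2% ± 1.58 with DOX. Of SYT1, SYT4, SYT7 and SYT11 TPM, the share of SYT11 was 0.264% ± 0.0553 and 0.398% ± 0.0497. For the RIM and UNC13 pairs, replicate 1 of the groups was nearly equal (RIMS1 at 4.24% and 4.27%, UNC13A at 44.0% and 44.6%).

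**Figure D4:**
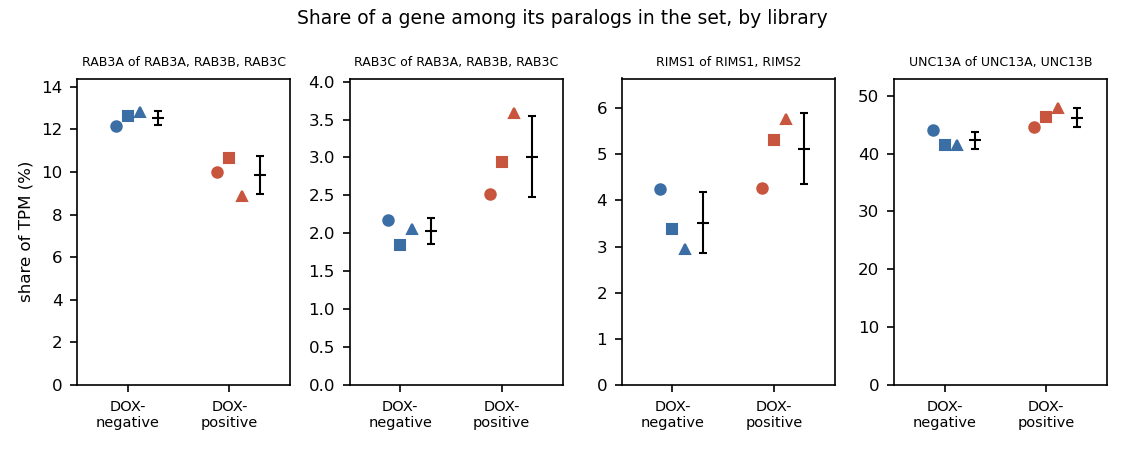
Share of RAB3A, RAB3C, RIMS1 and UNC13A in the TPM of the paralogs named above each panel, per library, with replicates 1, 2 and 3 as circles, squares and triangles and the mean ± SD beside each group. The RAB3A share was lower and the RAB3C share higher in each DOX-positive library, and the axes start at 0.

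The DOX-positive libraries did not depart equally from the DOX-negative mean. DOX-positive replicate 3 was the farthest from it for 25 of the 39 genes (64.1%), replicate 2 for 11 (28.2%) and replicate 1 for 3 (7.69%). Over all tested genes with counts in every library, the shares were 40.5%, 47.1% and 12.4%. ERC2, AMPH, CADPS, NRXN3 and RAB3A had their lowest, and RIMS1 and RAB3C their highest, level in DOX-positive replicate 3. These genes were picked for their differences with DOX in the same libraries. MUC1 was also at its lowest in DOX-positive replicate 3. Among the DOX-negative libraries MUC1 was lowest in replicate 3. There ERC2, CADPS and NRXN3 were at their highest, and RIMS1 and RAB3C at their lowest, of that group. AMPH and RAB3A were highest in DOX-negative replicate 2, where MUC1 was highest. A relation to the level of MUC1 was not tested. Without DOX-positive replicate 3 the median log2 fold change of the 39 genes was 0.05, against -0.01 with all 6 libraries.

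**Figure D5:**
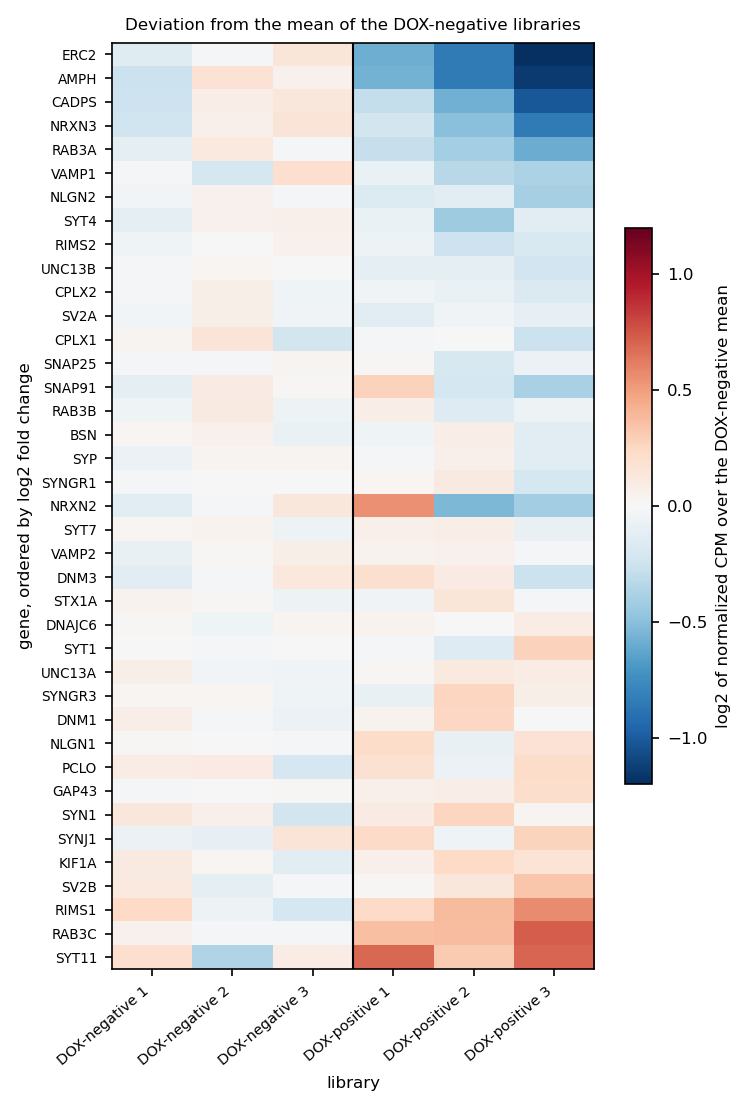
Log2 of normalized CPM over the DOX-negative mean for the 39 tested genes (rows, ordered by log2 fold change) in the 6 libraries (columns), from blue (lower) to red (higher). ERC2, AMPH, CADPS and NRXN3 are deepest blue in DOX-positive replicate 3, RAB3C and RIMS1 are reddest there, and SYT11 is red in DOX-positive replicates 1 and 3.

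Other genes of the same pathways were taken from a list of 109 presynaptic genes outside the 43. Of the 96 tested, 4 passed the test (4.17%, against 4.87% of all tested genes), 2 in each direction, and the median log2 fold change of the 96 was 0.01. RIMS4, a short RIM, rose by 0.52 ± 0.11 on the log2 scale (edgeR adjusted p = 0.0258), and RAB27A, a GTPase that tethers secretory granules, rose by 0.43 ± 0.094 (edgeR adjusted p = 0.0241). BAIAP3, an UNC13-related protein of dense core vesicle recycling, fell by 0.54 on the log2 scale (SE 0.12; edgeR adjusted p = 0.0276), and SYT13, a synaptotagmin without calcium binding, fell by 0.47 (SE 0.081; edgeR adjusted p = 0.0107). Leaving out DOX-negative replicate 2 or 3 left none of the 4 past the threshold, and 17 and 13 of the 96 then had an unadjusted edgeR p under 0.05, against 15.3% and 14.0% of all tested genes.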

How the data were processed

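RNA from 3 DOX-negative and 3 DOX-positive cultures was made into stranded mRNA libraries per the labels. Values of 2 kinds were deposited by the authors, gene counts without normalization from STAR alignments and TPM, which adjust the counts for gene length and for a fixed total per library. The submitters' processing notes name GRCh38 and DESeq2; the annotation, the aligner version and the strand setting are not given in the sources used here. Groups came from the sample titles.

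Counts were filtered (filterByExpr), scaled by TMM (factors 0.967 to 1.03) and fitted on all genes with the edgeR 4.0.16 quasi-likelihood test in R 4.3.3, DOX-positive against DOX-negative, without covariates. The biological coefficient of variation was 9.58%. P values were adjusted by Benjamini-Hochberg over 17026 genes, and genes were called at an adjusted p under 0.05. Exact permutation of 3 against 3 libraries cannot give a p under 0.10, and p values cover the spread between these cultures. The code was tested on simulated data. Values per library were given for called genes, the 6 genes with the highest TPM and the 5 largest fold changes not called. Alternatives were other scalings and filters, DESeq2 1.42.0, limma 3.58.1 on counts and on log2(TPM + 1) or log2(TPM + 0.1), with a minimum mean of 1 TPM or no filter, a gene length correction, a replicate block and each library left out. Members and lists were chosen with earlier results of these data known. 1 marker gene of the neuroendocrine list is not reported here.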

Additional observations from a re-analysis of the deposited data

How the results depend on the processing

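The main test called 3 genes of the set (1 higher and 2 lower). DESeq2 called 7 of 43 (2 higher and 5 lower), against 6.00% of 22564 genes with any count, which hold more genes with few counts than the set. On TPM, limma called 0 under each of its 3 settings, where 0.256%, 0.299% and 0% of all genes were called. In each of these, 2 genes of the set had an unadjusted limma p under 0.05, against 2.84%, 2.81% and 5.88% of all genes. Of other presynaptic genes, 4 of 96 were called (4.87% of all genes). The counts were 10 of 105 in DESeq2 (6.00%) and 7 of 95 with the gene length trend removed (5.79%). On TPM 0 were called, and 2 had an unadjusted limma p under 0.05 in each setting. With 1 library left out, called genes of the set ranged from 0 to 6 (higher 0 to 1, lower 0 to 5), other presynaptic genes called from 0 to 6, and the median log2 fold change from -0.030 to 0.048. The count of 0 arose without DOX-negative replicate 3, where 8 genes of the set had an unadjusted edgeR p under 0.05 (14.0% of all genes did), 1 remained without replicate 2 of that group, and the count of 6 arose without DOX-positive replicate 1. MUC1 missed the threshold on unfiltered log2(TPM + 1), at -1.22 (limma adjusted p = 0.286). Over all genes, 58, 127 and 1035 were called without DOX-negative replicate 3, without its replicate 2 and without DOX-positive replicate 1, against 829 with all libraries. The cause of these shifts was not tested.

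Of 16 alternatives with a value, ERC2 stayed called in 14 and RAB3C in 11, and AMPH in 12 of 18. Over the named genes, 15 values missed and 6 newly passed the threshold in analyses of all 6 libraries and 0 changed direction. With 1 library left out, 22 values missed and 5 newly passed the threshold. RAB3B (-0.107 to 0.0152) and SYP (-0.0745 to 0.0185), neither called, changed sign in some of these fits. The replicate block, with correlations of same-numbered libraries of -0.54, 0.02 and -0.10, called the same 3 genes of the set, 6 other presynaptic genes and 998 genes in all. Genes with few counts, such as SYT11 and NRXN2, had wide intervals.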

Other observations

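The genes of the set were long. The median annotated span was 98.0 kb for the 39 tested genes and 27.8 kb for the 15711 tested genes with a RefSeq span, and 18 of the 39 (46.2%) exceeded 100 kb, against 18.4%. The 3 genes that passed the test spanned 960 kb (ERC2), 277 kb (RAB3C) and 248 kb (AMPH). Of the 5 largest differences not called, NRXN3 spanned 1698 kb, RIMS1 517 kb and CADPS 477 kb, whereas SYT11 spanned 25.6 kb and RAB3A 7.26 kb. Other long genes of the set were not called and differed less. NLGN1 spanned 898 kb, RIMS2 755.5 kb, SYT1 588 kb and DNM3 577 kb. Their log2 fold changes were 0.11, -0.16, 0.05 and 0.03. Another fit removed the trend of each library on gene length, where length was the ratio of counts to TPM and not the annotated span. In that fit RAB3A passed the test (log2 fold change -0.45, edgeR adjusted p = 0.0414), and ERC2, AMPH and RAB3C still did. The part of the annotated span was not tested.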
